A study of Mus musculus with 16 samples.

Results

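The cytosolic ribosomal protein genes encode the proteins of the large and small subunits of the ribosome that translates nuclear messages. They were taken by name, as mouse symbols that start with Rpl or Rps followed by a number, together with Rplp0, Rplp1, Rplp2 and Rpsa, without named pseudogenes. A total of 88 genes had such a name, and the 86 with 160 or more counted fragments over all libraries are described here, of 46078 genes in the table. The other two were Rpl10l, listed at 0, and Rps12l1, with 78 fragments. Just inside that minimum lay Rpl39l with 262 fragments, Rpl3l with 649 and Rps3a3 with 753. Of the 86, 51 belong to the large and 35 to the small subunit, and all 86 passed the filter on low counts, which kept 16101 genes.

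Ribosomal proteins are made in equal amounts to match ribosomal RNA, and their messages are among the most abundant in growing cells. In vertebrates most of these messages begin with a C followed by a run of pyrimidines, the 5′ terminal oligopyrimidine (TOP) motif, through which mTOR and Larp1 set how much of them is translated. Transcription of the genes follows growth signals, Myc among them, and tumour cells are known for high output of ribosomes.

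The samples were melanomas grown from B16F10-GP cells, a derivative of the C57BL/6 mouse melanoma line B16F10, under the skin of the flanks of female C57BL/6 mice aged 6 to 8 weeks, in 25% Matrigel. There were 4 groups of 4 libraries. The combined group received a single X-ray dose of 5 Gy to the right flank on the morning of day 10 and QH-II-066, a ligand of GABA-A receptors, from that evening, at 10 mg/kg by intraperitoneal injection daily for 7 days. The 5 Gy group received the radiation alone, and the QH-II-066 group the drug alone on the same schedule. The fourth group is labelled untreated, although the treatment protocol describes vehicle for the controls. The labels name neither the flank profiled nor the mouse behind each library, so p-values cover only the spread among these libraries, part of which may be technical. RNA was accepted on a minimum share of long fragments, enriched by transcriptome capture and sequenced; the share in each sample is not given in the sources used here. In tumour pieces of this kind, fewer cells of a type and less RNA per cell cannot be told apart.

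Library totals ran from 6994198 to 40799942 assigned fragments, and the shallowest was replicate 4 of the combined group. The 12 melanocyte markers, Pmel, Tyr and Dct among them, summed to 16486 to 27681 CPM (counts scaled to the library total) over all libraries. Skin epithelium and skeletal muscle transcripts varied between libraries: the 14 skin markers summed to 16.3 to 1804 CPM in the combined group, 4.84 to 3687 CPM after 5 Gy, 4.75 to 9.10 CPM after QH-II-066, with 3.38 to 5.01 CPM in untreated tumours. In untreated tumours, 7 of those 14 (Krt1, Krt15, Dsc3, Dsg1a, Lor, Ivl and Krtdap) were at 0 in every library, and after QH-II-066 5 of them were (Krt1, Krt15, Dsc3, Dsg1a and Lor). The 16 skeletal muscle markers summed to 9.71 to 1589 CPM in the combined group, 6.25 to 3400 CPM after 5 Gy, 8.08 to 1617 CPM after QH-II-066, with 7.45 to 154 CPM in untreated tumours, where Tnnc2 was at 0.

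The first bases of a ribosomal protein message carry its TOP motif, so the start regions of 9 members are printed, the 4 that followed the length gradient described further on most steeply and the 5 that were not called on it. For Rpl3l the first of 2 annotated starts is shown. Each runs 5′ to 3′ on the sense strand, from 20 bases before to 20 bases from the annotated start, taken from RefSeq on GRCm38.p6. Capitals mark a run of at least 8 pyrimidines that begins with C.
Rplp2: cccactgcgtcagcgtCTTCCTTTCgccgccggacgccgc
Rpl13: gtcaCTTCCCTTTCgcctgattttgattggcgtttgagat
Rpl41: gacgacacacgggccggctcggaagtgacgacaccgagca
Rpl37a: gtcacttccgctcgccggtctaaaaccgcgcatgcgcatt
Rpl4: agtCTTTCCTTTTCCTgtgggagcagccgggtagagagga
Rpl15: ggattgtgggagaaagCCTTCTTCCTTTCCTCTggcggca
Rpl7l1: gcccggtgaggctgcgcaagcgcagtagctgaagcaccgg
Rpl3l: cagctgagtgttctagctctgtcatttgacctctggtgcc
Rpl39l: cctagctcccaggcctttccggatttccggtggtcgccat
The windows lie at chr7:141447631-141447670 (plus strand) for Rplp2, chr8:123102330-123102369 (plus) for Rpl13, chr10:128549149-128549188 (minus) for Rpl41 and chr1:72711240-72711279 (plus) for Rpl37a. Those of the members not called lie at chr9:64173367-64173406 (plus) for Rpl4, chr14:18270967-18271006 (minus) for Rpl15, chr17:46782637-46782676 (minus) for Rpl7l1, chr17:24727806-24727845 (plus) for Rpl3l and chr16:10170208-10170247 (plus) for Rpl39l. A run was found in 2 members of the steep set (Rplp2 and Rpl13) and in 2 of the set not called (Rpl4 and Rpl15). The runs of Rplp2 and Rpl15 span the annotated start. Those of Rpl13 and Rpl4 end before it, so they lie outside the message as annotated. With or without the latter, the letters did not separate the sets.

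A promoter was matched for 62 members. Such a run lay within 20 bases of the start, on either side, in 30 of the 62 (48.4%), against 14.9% of 17492 coding genes. Runs that end before the start are included. The bases CCGGAAG, on either strand of the 300 bases from 250 before to 50 after the start, were present in 26 of the 62 (41.9%), against 12.9% of coding genes. TATAAA was found in 11.3% of members, against 14.8% of coding genes, and CACGTG in 9.68%, against 8.91%, both on either strand. CCGGAAG reads CTTCCGG on the other strand, whose first 5 letters can also lie in a pyrimidine run. These are matches of letters and not sites.

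Together the 86 genes took 5.37% to 12.3% of all assigned fragments. The share was 12.1%, 8.45%, 8.15% and 11.5% in the combined group, and 5.37%, 5.79%, 8.40% and 6.46% after 5 Gy. It was 12.3%, 9.47%, 6.49% and 9.51% after QH-II-066, and 7.25%, 6.61%, 5.68% and 9.79% in untreated tumours. Each treated group overlapped with untreated tumours, whose replicate 4 was above every library of the 5 Gy group. The 95% Wilson interval of each share was at most 0.0237 percentage points to either side, which covers counting error only.

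For a comparison between members, levels were taken as CPM per kilobase of the Length column, the bases of all annotated exons of a gene. The highest were Rplp1 at 4480 ± 2925 CPM per kilobase, Rpl32 at 3532 ± 1263, Rps12 at 3057 ± 1643, Rpl8 at 2461 ± 869 and Rps15 at 2121 ± 1015 (SD, n = 16 libraries). Length can exceed the coding length by far, so this order depends on the annotation as well as on the counts. It may also depend on the transcriptome capture, whose yield for each gene is not known here. Rplp1, Rpl32 and Rps12 are also among the shortest members by Length. Rplp1 is a protein of the flexible stalk of the large subunit that recruits translation factors, and Rps12 and Rps15 are small-subunit proteins. The lowest were Rps4l at 3.74 ± 1.94, Rpl6l at 2.49 ± 1.003, Rps3a3 at 2.04 ± 0.720, Rpl3l at 0.854 ± 1.35 and Rpl39l at 0.701 ± 0.451 CPM per kilobase. Of the 86, 79 averaged over 100 CPM. Rps4l, Rpl6l, Rps3a3 and Rps3a2 carry a functional name but are annotated as processed pseudogenes in GENCODE M21. Fragments that map to several copies are not assigned under the counting used, so members with near-identical copies may be undercounted: the table holds 268 named ribosomal protein pseudogenes, 226 of them with a count and 77617 fragments in all.

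By Length, the shortest members were Rpl36 (404 bases), Rps26 (447), Rps12 (476), Rplp1 (495) and Rpl32 (517), and the longest Rps15a (6262), Rps19 (4685), Rps3 (4483), Rps20 (4080) and Rpl18 (4042). The coding length was 390 bases in Rps15a and 435 in Rps19. In 7 members, 25.3% to 66.2% of exon bases also belong to another gene. Rpl24, with 47.0% of its exon bases shared with Gm28037, had 3770 fragments in all, and its counts are uncertain. Counting used no strand, so fragments of overlapping genes on the 2 strands could not be told apart.

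Members moved together from library to library. The correlation of a member's log2 CPM with the mean of the other members had a median of 0.973 over the 16 libraries, and 65 of 86 reached 0.9, against 6.86% of the 16015 other genes when set against the members' mean. The lowest were Rpl3l at -0.21, Rpl7l1 at 0.14, Rpl39l at 0.18, Rps4l at 0.38, Rpl4 at 0.44 and Rpl15 at 0.48. These points share libraries, depth and scaling. In the 4 libraries with the highest mean level, 84 of 86 members stood above their own mean in replicate 1 of QH-II-066, 85 in replicate 1 and 68 in replicate 4 of the combined group, and 85 in replicate 4 of untreated. In replicate 3 of QH-II-066, 0 of 86 did.

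The same libraries differed by gene length. A length slope was computed for each library over 9691 other genes with a mean log2 CPM above 3, as the slope of the deviation in log2 CPM on log2 Length, with the members left out. A negative slope means that short genes stand high in that library. The slope was -0.25, 0.02, -0.02 and -0.10 in the combined group and 0.20, 0.16, -0.05 and 0.12 after 5 Gy. It was -0.24, -0.11, 0.13 and -0.12 after QH-II-066, and 0.08, 0.14, 0.23 and -0.18 in untreated tumours. Within each group it was spread widely, with a mean of -0.0861 ± 0.119 in the combined group, 0.106 ± 0.110 after 5 Gy, -0.0872 ± 0.156 after QH-II-066, with 0.0670 ± 0.174 in untreated tumours (SD, n = 4 each).

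The mean log2 CPM of the 86 genes, called the score here, followed that slope from library to library. It was 9.75, 9.07, 9.08 and 9.56 in the combined group, 8.36, 8.52, 9.12 and 8.67 after 5 Gy, 9.85, 9.33, 8.62 and 9.36 after QH-II-066, and 8.81, 8.68, 8.56 and 9.44 in untreated tumours. Score and slope had a Pearson r of -0.978 and a Spearman rho of -0.962 over the 16 libraries, and r was -0.966 without the 2 libraries farthest from the median slope. With each group's mean taken off both measures, r was -0.975, and over the 11 libraries with a mean log2 CPM of skin markers of 0 or less it was -0.985. All points share the scaling of the same counts, so the values are a description. The score had an r of -0.07 with the melanocyte score, -0.27 with the skeletal muscle score, -0.10 with the skin score and 0.23 with the total count. Without the 2 libraries farthest from the median of each measure, these were -0.15, -0.08, 0.21 and 0.66, in that order. For the total count the Spearman rho over the 16 libraries was 0.46, and whether depth affects the score was not tested.

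**Figure D1:**
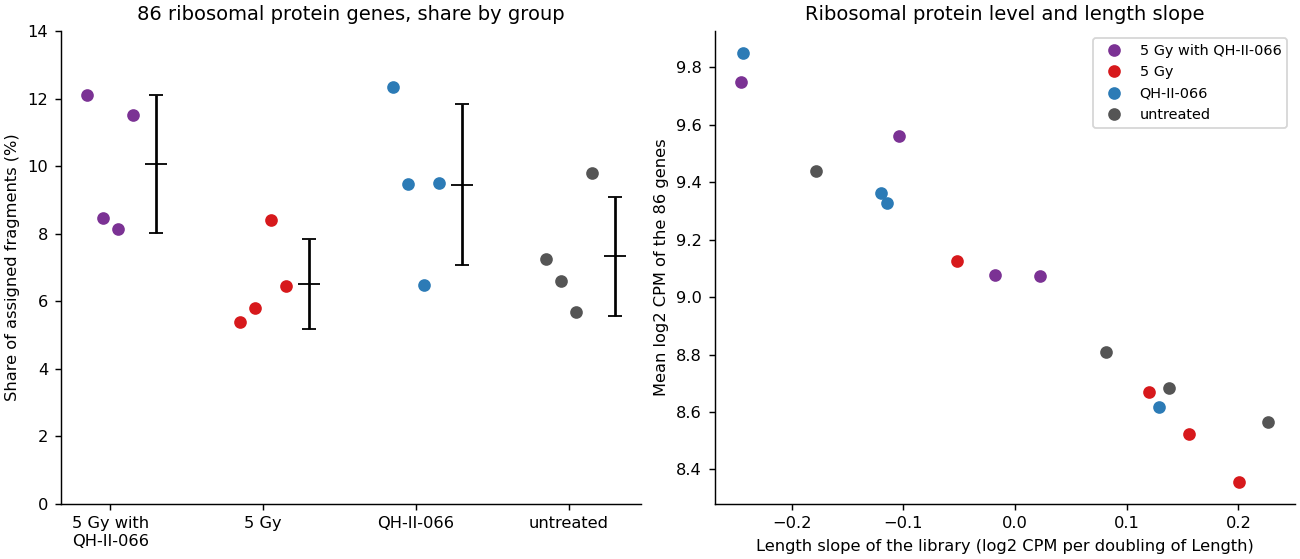
Left, the share of assigned fragments taken by the 86 ribosomal protein genes in each library (points) with the mean and SD of each group of 4 (bar beside them). Right, the mean log2 CPM of those genes against the length slope of each library, coloured by group: the points of all 4 groups lie along 1 falling line (r = -0.978), from a slope of -0.25 and a score of 9.75 in the combined group to a slope of 0.23 and a score of 8.56 in untreated tumours.

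The coefficient of each gene on the slope was tested in edgeR's quasi-likelihood model with the 4 group means, with Benjamini-Hochberg adjustment over 16101 genes. It is the change in log2 CPM per unit of slope at a fixed group. Of the 86 members, 81 fell along the slope and 0 rose, against 20.5% of all genes that fell and 21.6% that rose. The median coefficient was -2.89 for the members and 0.15 for all genes. All 35 small-subunit genes fell, with coefficients from -4.19 to -1.68, and 46 of the 51 large-subunit genes did.

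The steepest was Rplp2, the second acidic stalk protein, with a coefficient of -4.58 ± 0.88 (SE; adjusted p = 0.00088). Rpl13 had -4.53 ± 0.69, Rpl41, which encodes a peptide of unusually few residues, -4.41 ± 0.67, Rpl37a -4.26 ± 0.71 and Rps21 -4.19 ± 0.64, with adjusted p from 0.000113 to 0.000267. Rplp2 stood at 2064, 790, 1011 and 3754 CPM in the combined group and 488, 534, 964 and 616 CPM after 5 Gy, which overlap. It stood at 1969, 1109, 475 and 1106 CPM after QH-II-066, with 698, 597, 542 and 1458 CPM in untreated tumours. Within the 5 Gy, QH-II-066 and untreated groups its highest library was the one with the lowest slope, and in the combined group it was the shallowest library.

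The stalk base Rplp0, often used as a reference gene, had a shallower coefficient of -1.66 ± 0.23 (adjusted p = 4.16e-05), and Rpsa, the small-subunit protein also known as the laminin receptor, had -3.29 ± 0.45 (adjusted p = 3.4e-05). Rpl5 and Rpl11, which with 5S ribosomal RNA bind Mdm2, had -1.95 ± 0.30 and -2.48 ± 0.23. Rps6, the substrate of S6 kinase, had -1.68 ± 0.36, and Rps27a, made as a fusion to ubiquitin, had -3.47 ± 0.43. All 6 fell along the slope, with adjusted p of at most 0.00138.

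The other 5 members were not called on the slope. Rpl4, a protein that lines the exit tunnel, had a coefficient of -0.69 ± 0.28 (adjusted p = 0.0615) and Rpl15 had -0.94 ± 0.43 (adjusted p = 0.0951). Rpl7l1, a paralog of Rpl7, had -0.31 ± 0.30 (adjusted p = 0.439), whereas Rpl7 fell with -2.18 ± 0.23 (adjusted p = 4.05e-06). Rpl39l, a paralog of Rpl39, had -2.24 ± 1.89 on 262 fragments, and Rpl3l, the muscle paralog of Rpl3, had 2.53 ± 5.86. Rpl4 stood at 2158, 2000.8, 1953 and 1469 CPM in the combined group, 1717, 1699, 2195 and 1861 CPM after 5 Gy, 2279, 2168, 1942 and 2170 CPM after QH-II-066, and 2045, 1934, 1886 and 2226 CPM in untreated tumours. These values overlap between all groups, and the lowest belongs to the shallowest library.

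In the paralog pairs of Rpl22, Rps27 and Rps4x both members fell. Rpl22 had a coefficient of -2.84 ± 0.25 and Rpl22l1 -3.10 ± 0.40. Rps27 had -2.52 ± 0.25 and Rps27l -2.37 ± 0.40. Rps4x had -2.47 ± 0.23 and its retrotransposed relative Rps4l -3.70 ± 1.24, with adjusted p = 0.0256 for Rps4l. Rpl10 had a coefficient of -1.29 ± 0.29 (adjusted p = 0.0021).

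**Figure D2:**
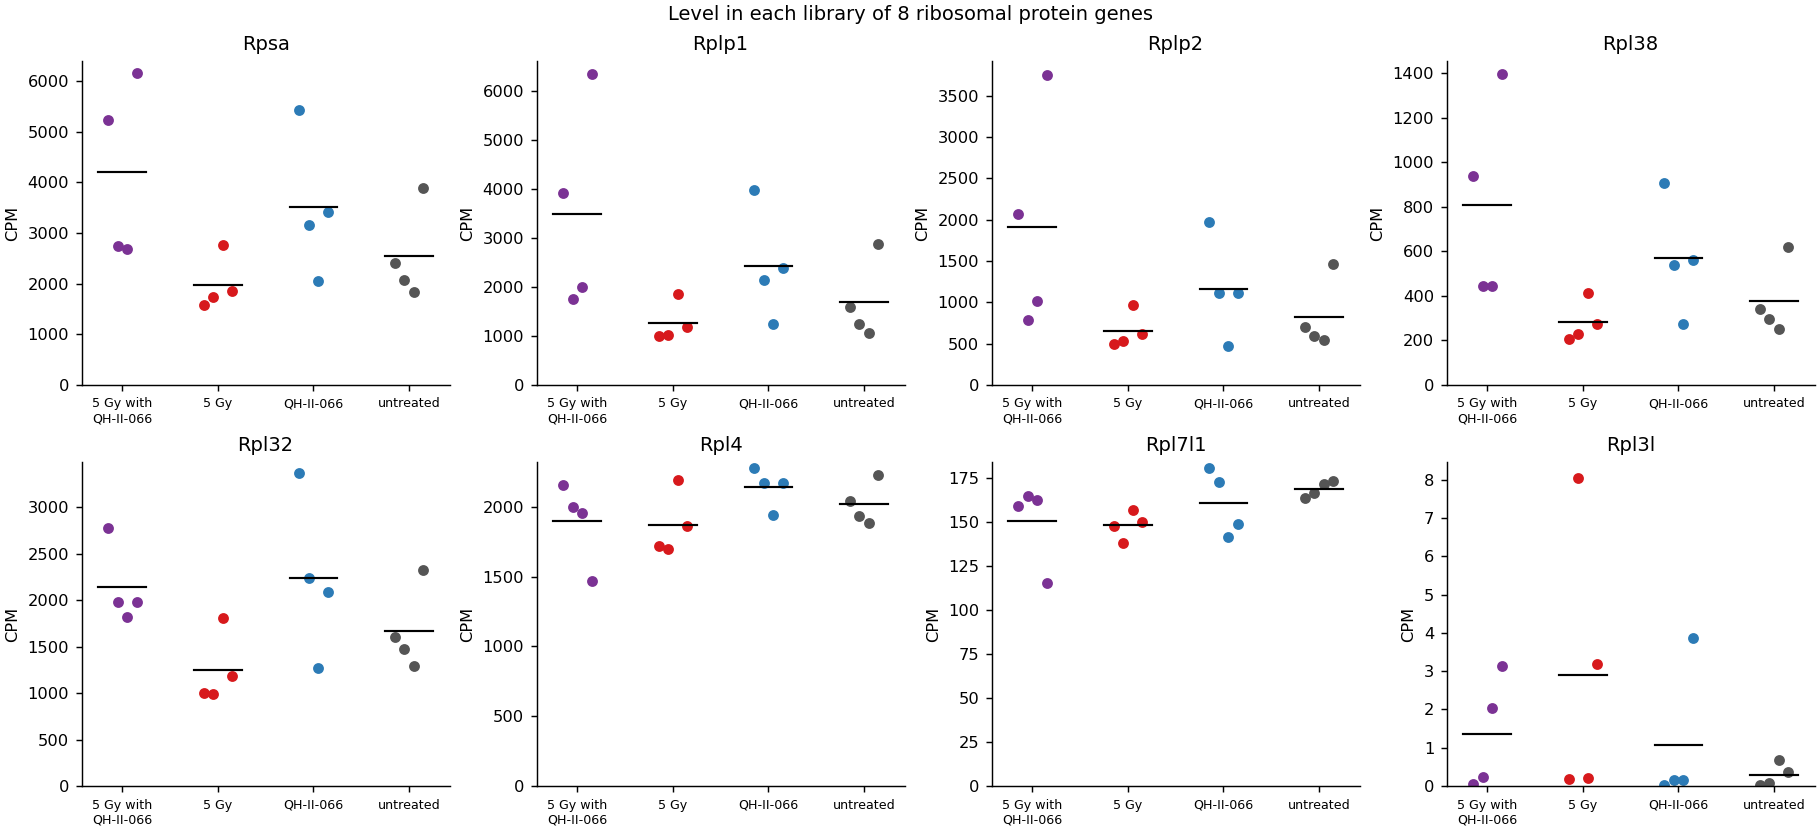
CPM of 8 members in each library (points, 4 per group) with the group mean (line), each on its own axis from 0. In Rpsa, Rplp1, Rplp2 and Rpl38 the highest library of the combined group is replicate 4, which is the lowest of its group for Rpl4 and Rpl7l1, and Rpl3l is above 2 CPM in 5 libraries of 3 groups.

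The members' coefficients followed their own Length weakly, with an r of 0.18. Among other genes the median coefficient was -3.01 for Length up to 500 bases. It was -2.14 in the next bin up to 1000, -1.18 up to 2000, -0.16 up to 4000, 0.71 up to 8000 and 1.31 above that. Among members it was -3.74 (4 genes), -2.84 (26), -2.89 (29), -2.52 (22) and -2.98 (5) in the same bins up to 8000, and none was longer. The 5 members over 4000 bases thus had coefficients of -3.57 to -2.67, against quartiles of -0.19 and 1.56 among 5072 other genes of 4000 to 8000 bases. Other genes with a mean log2 CPM above 8 had a median of -3.57 (3 genes), -2.98 (19), -1.90 (101), -0.77 (222) and -0.04 (158) in the same 5 bins and 0.88 (53) above them. In the 2 shortest bins, which hold 30 of the 86 members, these abundant genes were thus close to the members. In the longer bins that hold members they were further away, at -1.90, -0.77 and -0.04 against -2.89, -2.52 and -2.98.

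Coding length, taken from GENCODE M21 for the 82 members that have one, ordered the members better. Coefficient and log2 coding length had an r of 0.49 over these 82. The median coefficient was -3.28 in the 28 members with at most 400 coding bases, -2.85 in the 30 with more, up to 600, and -2.28 in the 24 above 600. From 500 to 1000 coding bases the median was -2.65 in 29 members and -0.74 in 3321 other genes, and up to 500 it was -3.03 in 50 members and -1.66 in 1231 other genes. The 30 members with a pyrimidine run had a median of -2.98 and the 32 without one -2.83. Whether coding length, transcript abundance or another property sets these coefficients was not tested.

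**Figure D3:**
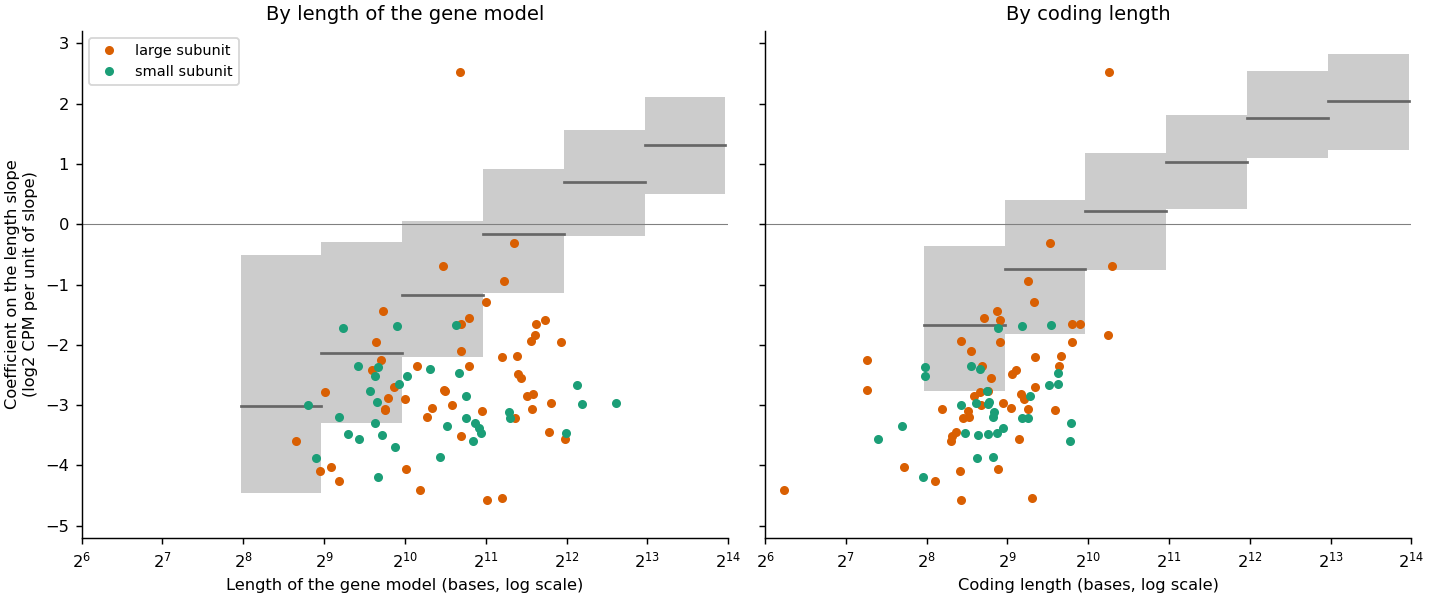
Coefficient on the length slope for each member (points, by subunit) against the length of its gene model (left, 86 genes) and its coding length (right, 82 genes), both on log axes. Grey boxes give the quartiles and the grey line the median of all other tested genes in each length bin, the lowest bin being drawn from 250 bases. The members' medians stay between -3.74 and -2.52 in the bins of gene model length, while the grey medians run from -3.01 to 1.31. The rise of the grey medians with gene model length is built in, since the slope was fitted on other genes.

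The shallowest library was also looked at by coding length and by member. In replicate 4 of the combined group the 28 members with at most 400 coding bases stood at a median of 0.75 above their own means in log2 CPM, and the 24 with over 600 coding bases at 0.33. In replicate 1 of that group these medians were 0.85 and 0.57. The deviation of members had an r with log2 coding length of -0.33 in replicate 4 and -0.46 in replicate 1. It was 0.53 in replicate 3 of untreated, which is the reverse order. In replicate 4 of untreated it was -0.38, so such an ordering was not particular to the shallowest library. Rplp1 was at 6337 CPM there and Rplp2 at 3754, the highest of 16 libraries for both. Rpl4 at 1469, Rpl15 at 274 and Rpl7l1 at 116 CPM were the lowest of 16. This library also had the highest mean log2 CPM of its group for the muscle markers, at 6.07, and the skin markers, at 6.50. Results that rest on it are given below also without it.

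Radiation alone was set against no treatment. The members had a median log2 fold change of -0.27 in 5 Gy against untreated tumours, with -0.08 for all genes tested, and 3 of the 86 had a value above 0. The median was -0.07 without replicate 4 of untreated and -0.47 without replicate 3 of 5 Gy. None was called by edgeR's quasi-likelihood test at an adjusted p of 0.05 (0 higher and 0 lower), where 1.25% of genes were called higher and 0.00621% lower. Unadjusted p was under 0.05 for 2 members that were higher (12.3% of all genes) and 0 that were lower (2.81%). DESeq2 called 0. With sample weights limma-voom called 1 higher, Rps4l, and 0 lower (4.37% and 0.615% of all genes). Where either tool called 0 members in both directions, here and below, the share of all genes called is not given. Such a 0 does not set the members apart from other genes.

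The 5 smallest p-values belonged to Rps4l, Rpl3l, Rpl39l, Rpl39 and Rpl7l1. Rps4l stood at 4.52, 6.43, 3.68 and 3.56 CPM after 5 Gy and at 0.936, 1.96, 0.895 and 3.83 CPM in untreated tumours, overlapping through 1 untreated library. Its log2 fold change was 1.25 ± 0.52 (SE; adjusted p = 0.255), and 1.62 ± 0.40 in limma-voom with sample weights (adjusted p = 0.0324). Rpl3l had 3.33 ± 1.56, Rpl39l 1.35 ± 0.69, Rpl39 -0.50 ± 0.27 and Rpl7l1 -0.19 ± 0.12, with adjusted p of 0.328 to 0.505. Rpl7l1 was the only member whose groups did not overlap, at 148, 138, 157 and 150 CPM after 5 Gy and 164, 167, 172 and 174 CPM in untreated tumours, in a comparison where 3.13% of genes were lower and 5.97% higher without overlap.

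The fibroblast and matrix list moved with this comparison: 10 of its 12 genes rose, and it summed to 2296 to 5024 CPM after 5 Gy and 793 to 1032 CPM in untreated tumours. Of 11 macrophage markers 3 rose, with sums of 1293 to 2507 CPM after 5 Gy and 479 to 1483 CPM in untreated tumours. Their part in the values of the ribosomal protein genes was not tested. For the common reference gene Rplp0 the value was -0.22 ± 0.18 on the log2 scale (adjusted p = 0.628), with a 95% interval of -0.61 to 0.18.

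The drug alone was likewise set against no treatment. QH-II-066 tumours had a median log2 fold change of 0.45 over the members and 0.01 over all genes, with 85 of 86 members above 0. The median was 0.19 without replicate 1 of QH-II-066 and 0.68 without replicate 4 of untreated. The quasi-likelihood test called 0 members in either direction and 0 of all genes (background 0%). Unadjusted p was under 0.05 for 1 member that was higher (3.14% of all genes) and 0 that were lower (5.03%). DESeq2 called 0, whereas limma-voom with sample weights called 59 members higher, where 11.7% of genes were called higher and 17.1% lower.

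No member had groups without overlap (0 higher and 0 lower, 1.37% and 1.55% of all genes). The 59 calls were seen only with the sample weights. These weights ran from 0.314 for replicate 4 of untreated, whose score of 9.44 was the highest of its group, to 2.94 for replicate 4 of QH-II-066. Limma-voom without weights called 0 members, and limma-voom with weights and the length slope as a covariate also called 0. The share of all genes called in those fits is not given, so these counts do not set the members apart from other genes. The 5 smallest p-values of the quasi-likelihood test belonged to Rpl22l1, Rpl17, Rps23, Rpl37 and Rpl41, each with an adjusted p of 0.546. Rpl22l1, a paralog of Rpl22, stood at 398, 264, 134 and 251 CPM after QH-II-066, with 161, 148, 133 and 215 CPM in untreated tumours. The groups overlapped, and its log2 fold change was 0.67 ± 0.31.

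The combined treatment was compared with no treatment. The members' median log2 fold change was 0.46, against 0.00 for all genes to 2 decimals, and 83 of 86 were above 0. It was 0.30 without replicate 1 of the combined group and 0.70 without replicate 4 of untreated. The quasi-likelihood test called 0 members and 0 of all genes (background 0% in both directions). DESeq2 and limma-voom with sample weights called 0 members, and their share of all genes called is not given. Unadjusted p was under 0.05 for 15 members that were higher (7.44% of all genes) and 0 that were lower (8.8%). Without replicate 4 of the combined group the 15 became 0 (3.98% of all genes higher). No member had groups without overlap (0 higher and 0 lower, 2.53% and 1.69% of all genes).

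The smallest p-values were those of Rpl24, Rps21, Rpl41, Rpl38 and Rpl37a, each with an adjusted p of 0.298. Rpl38, known in mice for its part in translating Hox messages, stood at 941, 444, 445 and 1396 CPM in the combined group and 343, 296, 252 and 621 CPM in untreated tumours. Replicate 4 of untreated exceeded 2 of the combined libraries, and the log2 fold change was 1.09 ± 0.42. Rps21 had 1.17 ± 0.43, Rpl41 1.21 ± 0.46, Rpl37a 1.16 ± 0.45 and the uncertain Rpl24 1.45 ± 0.53.

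The combined treatment was then set against radiation alone, where the median was the highest of the 7 comparisons. The members had a median log2 fold change of 0.73 over 5 Gy, against -0.06 for all genes, and 83 of 86 were above 0. In the same comparison 0 of 12 fibroblast and matrix genes had a value above 0 (median -1.02; sums of 836 to 2569 CPM in the combined group and 2296 to 5024 CPM after 5 Gy). Of 11 macrophage markers 1 did (median -0.53; sums of 856 to 2036 CPM in the combined group and 1293 to 2507 CPM after 5 Gy). No gene of either list was called (0), and their part in the members' values was not tested. The quasi-likelihood test called 0 members and 0 of all genes (background 0% in both directions), limma-voom with sample weights called 0, and DESeq2 called 2 higher, Rpl38 and Rps21, and 0 lower (0.466% and 0.298% of all genes). Unadjusted p was under 0.05 for 64 members that were higher (11.6% of all genes) and 0 that were lower (7.9%). Without the shallowest library 53 members were higher (9.55% of all genes) and the median was 0.70.

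In this comparison 10 members had groups that did not overlap, all higher in the combined group (4.45% of all genes, and 3.97% lower). Rpl22, Rpl32, Rpl38, Rpl39, Rps27 and Rps28 were among them. Rps27, a small-subunit protein with a zinc finger, stood at 751, 558, 536 and 674 CPM in the combined group and 267, 301, 458 and 348 CPM after 5 Gy. Its log2 fold change was 0.87 ± 0.25 (adjusted p = 0.209). Rpl39, which lies in the exit tunnel, stood at 533, 392, 428 and 545 CPM in the combined group and 197, 223, 317 and 248 CPM after 5 Gy.

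The log2 fold change of Rpl39 was 0.95 ± 0.27, of Rpl38 1.52 ± 0.43, of Rps21 1.53 ± 0.44 and of Rps28 1.11 ± 0.32, each with an adjusted p of 0.209. Without the shallowest library Rpl38 was at 1.12 ± 0.41 and Rps21 at 1.16 ± 0.43 (adjusted p = 0.277 for both). In DESeq2 the adjusted p was 0.0418 for Rpl38 and 0.0439 for Rps21. Rpl32 stood at 2783, 1986, 1822 and 1976 CPM in the combined group and 998, 991, 1810 and 1180 CPM after 5 Gy, where the lowest combined library lies just above the highest of the 5 Gy group.

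The combined treatment was also set against the drug alone. The members' median log2 fold change was 0.01, against -0.02 for all genes, and 44 of 86 were above 0. It was -0.16 without replicate 3 and 0.26 without replicate 1 of QH-II-066. The quasi-likelihood test called 0 members and 0 of all genes (background 0%), the other 2 tools called 0 members, and unadjusted p was under 0.05 for 0 members in either direction (2.77% of all genes higher and 0.882% lower). No member had groups without overlap (0 higher and 0 lower, 1.29% and 0.621% of all genes). The 5 smallest p-values were those of Rplp2, Rpl23a, Rpl4, Rpl15 and Rplp1, all with an adjusted p of 0.9997. For Rplp2 the log2 fold change was 0.71 ± 0.49 with a 95% interval of -0.36 to 1.78, and for Rpl4 it was -0.18 ± 0.13 with an interval of -0.47 to 0.12.

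Radiation alone was last set against the drug alone. In 5 Gy tumours the members were lower than in QH-II-066 tumours, with a median log2 fold change of -0.73, against 0.02 for all genes, and 3 of 86 were above 0. It was -0.49 without replicate 1 of QH-II-066. The fibroblast and matrix genes were above 0 in 12 of 12 (median 1.43) and the macrophage markers in 9 of 11 (median 0.59), with 0 called, and their part was not tested. The quasi-likelihood test called 0 members and 0 of all genes (background 0%). Unadjusted p was under 0.05 for 71 members that were lower (11% of all genes) and 0 that were higher (10.1%), and 0 members had groups without overlap in either direction (3.53% of all genes lower and 4.01% higher). DESeq2 called 1 member lower, Rps27l, and 0 higher (0.634% and 2.72% of all genes). With sample weights limma-voom called 78 lower and 0 higher (16.5% and 15.2% of all genes). Limma-voom called 0 without the weights and 0 with both the weights and the slope as a covariate, fits whose share of all genes called is not given.

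Rps27l, a paralog of Rps27, stood at 182, 167, 270 and 206 CPM after 5 Gy and 561, 385, 218 and 326 CPM after QH-II-066, overlapping through 1 library of each group. Its log2 fold change was -0.85 ± 0.26 (adjusted p = 0.188), and in DESeq2 it had an adjusted p of 0.0467. Rpl39 had -0.88 ± 0.27, Rps27 -0.79 ± 0.25, Rpl32 -0.85 ± 0.28 and Rps25 -0.75 ± 0.25, with adjusted p of 0.188.

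The interaction asks whether the drug's difference was the same with and without radiation. Its median over the members was 0.30 in log2, against 0.03 for all genes, and it was 0.06 without replicate 4 of untreated and 0.56 without replicate 1 of QH-II-066. The quasi-likelihood test called 0 members and 0 of all genes (background 0%), with unadjusted p under 0.05 for 0 members in either direction (1.56% of all genes higher and 5.4% lower). DESeq2 called 0, and limma-voom with sample weights called 1 lower, Rps4l, and 0 higher (2.73% and 0.354% of all genes). The 5 smallest p-values were those of Rpl38 (0.93 ± 0.59), Rplp1 (0.95 ± 0.61), Rps4l (-1.12 ± 0.73), Rplp2 (1.05 ± 0.69) and Rpl39 (0.57 ± 0.38), with adjusted p of 0.848 to 0.860. The 7 comparisons share groups, so their values are not independent of each other.

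With the length slope as a covariate in the same model, the members' medians moved toward 0 in 6 of the 7 comparisons and away from it in the combined treatment against QH-II-066. The median log2 fold change was -0.16 for 5 Gy against untreated, -0.01 for QH-II-066 against untreated and 0.03 for the combined treatment against untreated. It was 0.19 for the combined treatment against 5 Gy, 0.06 against QH-II-066, -0.14 for 5 Gy against QH-II-066 and 0.21 for the interaction. Again edgeR called 0 members (for 5 Gy against untreated 1.58% of all genes were higher and 0.0621% lower, and for the other comparisons 0%). The median standard error over members was 0.107 for 5 Gy against untreated, and 0.286 without the covariate. Unadjusted p was then under 0.05 for 28 members higher in the combined group than after 5 Gy (4.54% of all genes) and 0 lower (3.33%), with 0.41 ± 0.10 for Rps27 and 0.43 ± 0.11 for Rpl39. It was so for 11 members lower after 5 Gy than in untreated tumours (8.6%), with -0.36 ± 0.10 for Rpl39 (adjusted p = 0.0804), and 2 higher (12.8%). It was so for 0 members in either direction in QH-II-066 against untreated (2.88% higher and 1.78% lower) and in the combined treatment against untreated (5.55% and 3.83%). For the combined treatment against QH-II-066 it was so for 5 members higher (4.04%) and 0 lower (1.93%), for 5 Gy against QH-II-066 for 1 higher (4.7%) and 7 lower (3.17%), and for the interaction for 14 higher (5.02%) and 1 lower (5.88%). With sample weights and the slope together limma-voom called 2 members lower after 5 Gy than in untreated tumours, Rps15a and Rpl39, and 0 higher (0.422% and 2.55% of all genes). With the slope and without the shallowest library edgeR called 1 higher, Rps4l, and 0 lower (2.67% and 0.421% of all genes). The slope differs between the groups as well as within them, so a treatment effect on these genes and the length gradient cannot be fully told apart.

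**Figure D4:**
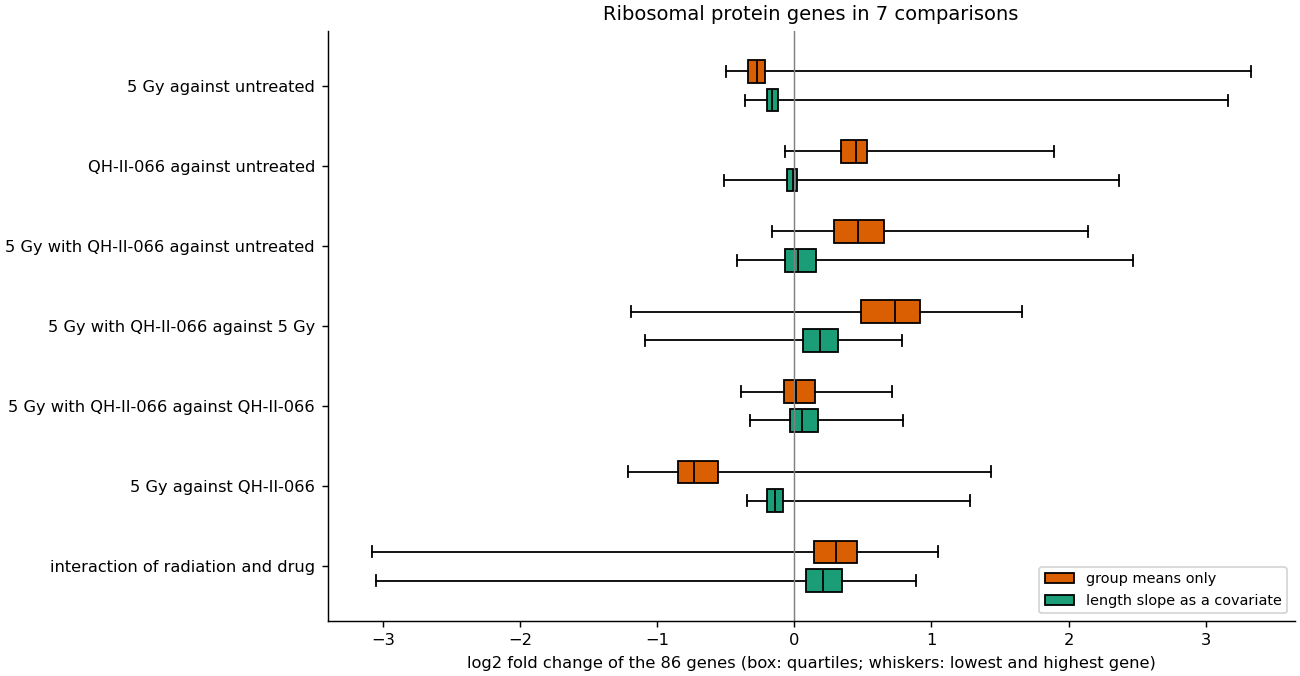
Log2 fold changes of the 86 genes in the 7 comparisons, with group means only (orange, upper box of each pair) and with the length slope as a covariate (green, lower box). Boxes give the quartiles, the line the median and the whiskers the lowest and highest gene; the medians of -0.73 to 0.73 move to -0.16 to 0.21.

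The mitochondrial ribosome, whose proteins are encoded by other nuclear genes, moved with the cytosolic one. Of its 77 tested genes (78 listed), 65 fell along the length slope and 0 rose, where 20.5% of all genes fell and 21.6% rose. The median coefficient was -2.16, in a list whose genes have a median Length of 1848 bases. The mean log2 CPM of the list had an r of 0.97 with the members' score over the 16 libraries. Mrpl27 had a coefficient of -2.57 ± 0.20, Mrpl51 -2.05 ± 0.17 and Mrps16 -3.51 ± 0.31. None of the 77 was called in any of the 7 comparisons (0 in edgeR's test), with medians of 0.45 for the combined treatment against 5 Gy and -0.50 for 5 Gy against QH-II-066. With the length slope as a covariate these medians were 0.07 and -0.09.

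Of 50 genes of ribosome assembly, 11 rose and 19 fell along the slope, where 21.6% of all genes rose and 20.5% fell. Their difference from the members was not tested. The median was -0.43, a list whose genes have a median Length of 3377 bases. Mdn1, a giant ATPase that remodels the pre-60S particle, rose with a coefficient of 3.48 ± 0.24, Tsr1 rose with 2.60 ± 0.26, and Eif6, which keeps the subunits apart, fell with -2.57 ± 0.22. Their mean log2 CPM had an r of 0.47 with the members' score, and 0.20 without 2 libraries. Of 16 elongation factors and other products of TOP messages, 9 fell and 1 rose, with -2.96 ± 0.32 for Eef1b2, -2.31 ± 0.24 for Eef1d and -3.27 ± 0.32 for Eif3f. Of 21 genes that control ribosomal protein synthesis, 7 rose and 6 fell, with 4.76 ± 0.44 for Eif4ebp2, 2.55 ± 0.27 for Tsc1 and 1.93 ± 0.23 for Mtor. Of 4 ribosomal protein genes with other names, of which Fau is also in the list of TOP products, 3 fell, with -4.08 ± 0.65 for Fau and -3.64 ± 0.43 for Rpl36al. In the 7 comparisons 0 genes of these 4 lists were called.

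Rpl3l followed the other members least and had the only positive coefficient on the slope. It replaces Rpl3 in ribosomes of skeletal and heart muscle, and it stood at 0.0541, 0.235, 2.03 and 3.13 CPM in the combined group and 0.178, 8.06, 0.203 and 3.19 CPM after 5 Gy. It stood at 0.0330, 0.167, 0.162 and 3.87 CPM after QH-II-066, with 0.0334, 0.0769, 0.672 and 0.352 CPM in untreated tumours. Its log2 CPM was set against the mean log2 CPM of the 15 skeletal muscle markers, of 16 listed, that passed the filter. Over the 16 libraries r was 0.94 and rho 0.90, and r was 0.91 without the 2 farthest. Rpl3 itself stood at 1122 to 2383 CPM in all libraries. The fold change of Rpl3l in any comparison thus goes with which libraries hold muscle transcripts, and no cause was tested.

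**Figure D5:**
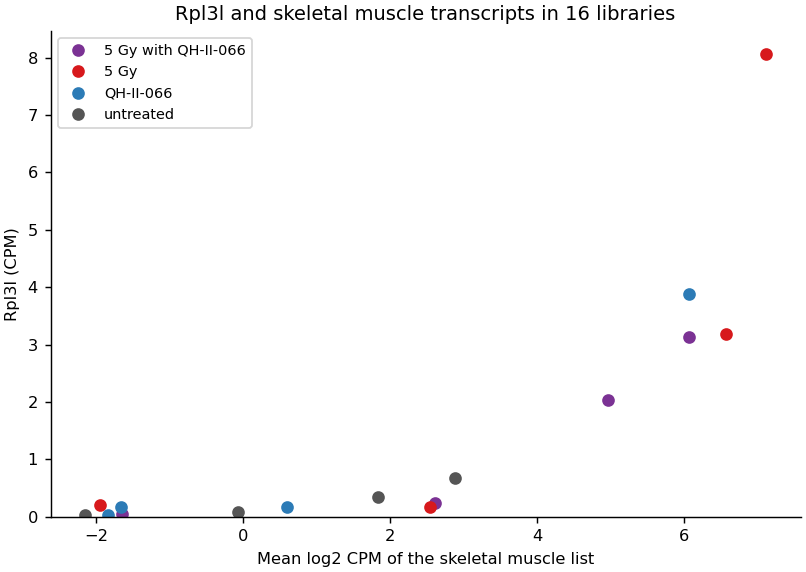
Rpl3l in CPM against the mean log2 CPM of the 15 skeletal muscle markers that passed the filter, 1 point per library, coloured by group. The 5 libraries with over 2 CPM of Rpl3l, at most 8.06 CPM, are those with the highest muscle values, in the combined, 5 Gy and QH-II-066 groups.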

How the data were processed

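The deposited counts are whole fragments per gene in 16 libraries, made by the authors with featureCounts 1.6.0 on mm10 in paired mode, with no strand and no multi-mapping option, per the file headers. STAR 2.4.1a is named in the submitters' processing notes. The deposited Length column gives the exon bases of each gene. Symbols came from a reference table for 45143 of 46078 genes. Members and lists were chosen with earlier results of these data known. Counts were filtered with filterByExpr, scaled by TMM and tested with edgeR 4.0.16 (robust quasi-likelihood, group means, 16 libraries, Benjamini-Hochberg over 16101 genes, threshold 0.05), in R 4.3.3. Recovery was checked in counts simulated for 5 Gy against untreated over 15873 genes, with the length slope as a covariate. That fit recovered 57 of 100 genes changed by 1 on the log2 scale and 94 of 100 changed by 2. The length gradient was simulated in 200 genes only, with a coefficient of 3. Of these, 122 were recovered (61%), and 6 of 128 calls were false. Recovery by the test without the covariate is not given. Log2 CPM used a prior count of 2. DESeq2 1.42.0, limma 3.58.1, other scalings, filters, covariates and leaving out single libraries were alternatives. For DESeq2 and limma-voom the share of all genes called is given only where a member was called. Named members are those with the 5 smallest p per comparison, the 5 highest and lowest by level, Length and slope coefficient, stalk, Mdm2-binding and ubiquitin-fused proteins, and paralog pairs; of other lists, genes called, at most 3. Exon overlaps and coding lengths are from GENCODE M21, start sequences from RefSeq on GRCm38.p6. Counting intervals cover counting error only. Some genes are not reported by name here.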

Additional observations from a re-analysis of the deposited data

Results flagged for a closer look

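In 204 groups of 4 libraries, the 4 groups times the 48 named members, the score, the share and the length slope, a library was flagged when its gap to the nearest other took more of the group's range than Dixon's 95% critical value. Chance flags about 5% of such groups, and 2 of the 204 were flagged here (0.980%). Rpl6l was at 3.04 CPM in replicate 3 of the 5 Gy group, where the next library was at 1.38 CPM. Rpl7l1 was at 116 CPM in replicate 4 of the combined group, the shallowest library, where the next was at 159 CPM.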

How the results depend on the processing

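Of the alternatives run, those that moved a value past its spread are given here; no called value changed sign. With edgeR, 0 members were called in each of the 7 comparisons whichever library was left out. Leaving out 1 library in turn, the median log2 fold change ran from -0.47 to -0.07 for 5 Gy against untreated, 0.19 to 0.68 for QH-II-066 against untreated and 0.30 to 0.70 for the combined treatment against untreated. It ran from 0.56 to 0.95 for the combined treatment against 5 Gy, -0.16 to 0.26 against QH-II-066, -0.95 to -0.49 for 5 Gy against QH-II-066 and 0.06 to 0.56 for the interaction. Members called on the length slope numbered 78 to 83. DESeq2 called 2 members in the combined treatment against 5 Gy and 1 in 5 Gy against QH-II-066. Limma-voom with sample weights called 59 in QH-II-066 against untreated, 78 in 5 Gy against QH-II-066, 1 in 5 Gy against untreated and 1 in the interaction. The following alternatives were chosen after seeing the data, except the slope covariate itself. For QH-II-066 against untreated, the combined treatment against untreated, the combined treatment against 5 Gy, and 5 Gy against QH-II-066, in that order, medians were -0.0111, 0.0272, 0.19 and -0.14 with the slope, -0.0543, 0.00462, 0.15 and -0.10 with a coding length slope, -0.00989, 0.00866, 0.16 and -0.14 with the slope and without the shallowest library, and -0.0374, 0.0385, 0.18 and -0.11 in limma-voom with weights and the slope. The last 2 of these fits called 1 and 2 members in 5 Gy against untreated. As a median over members the score was 9.98 in the combined group, 9.27 after 5 Gy, 9.88 after QH-II-066, with 9.52 in untreated tumours. Left-out libraries moved the score of a group to 9.24 to 9.46 (combined), 8.52 to 8.77 (5 Gy), 9.12 to 9.51 (QH-II-066) and 8.69 to 8.97 (untreated). The cause of these shifts was not tested. With the replicate number as a block, edgeR called 0 members in each comparison and 80 on the slope. Of 24 same-numbered pairs 11 had deviations correlated over 0.1 (range -0.78 to 0.56). The median r was -0.04 for pairs with the same number and -0.05 for pairs with different numbers. Whether same-numbered libraries share a batch cannot be told from these values.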
